A study of Mus musculus with 10 samples.

Results

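The Kruppel-like factors described here are 10 genes of 1 transcription factor family, Klf2, Klf3, Klf4, Klf6, Klf7, Klf9, Klf10, Klf11, Klf12 and Klf13, read in CD4+ splenocytes 6 h after abdominal sepsis. Their members were taken as every probe set whose platform annotation holds exactly 1 gene symbol and that symbol is in the list, which gave 36 of the 45101 probe sets and 10 of the 18193 genes named in this way. The samples came from C57Bl/6 mice aged 8 to 12 weeks with no transgene or deletion named in the labels. The CLP group had cecal ligation and puncture under halothane, a model of polymicrobial peritonitis, and the sham group had a laparotomy in which the cecum was only handled, also under halothane. Cells were enriched by magnetic removal of other cells, to about 91% CD4+ in the submitters' words, and each mouse had its own Affymetrix expression array, so n = 5 mice in each group.

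Kruppel-like factors share 3 zinc fingers at the C-terminal end that bind GC-rich and CACCC elements, and differ in the rest of the protein, which recruits activators or repressors. In T cells the family is best known through Klf2, which keeps resting cells quiescent and drives the receptor S1pr1 by which they leave the thymus and lymph nodes. Other members answer hormones or cytokines: Klf9 is induced by glucocorticoids and thyroid hormone, and Klf10 was first described as a gene induced by TGF-beta. The comparison asks which members had a different transcript level in CD4+ cells of septic mice.

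Levels are given as log2 of the intensity after scaling that gave all arrays the same median, with values under 69.8 (6.13 on the log2 scale) set to that floor. A higher log2 level of one probe set than of another says nothing about which transcript is more abundant, since probes differ in binding. Of the 36 probe sets 25 passed the filter on mean signal over all 10 arrays and were tested. The other 11 had means between 6.13 and 6.58, within 1 log2 unit of the floor, and 3 of them lay at the floor on every array. A difference here means CLP minus sham, its SE is limma's, and adjusted p is limma's p with Benjamini-Hochberg adjustment over all 27022 tested probe sets.

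The arrays fell into classes that the labels do not name, and these are given first because several members follow them. The control probe set for 18S ribosomal RNA read 194.3 to 268.4 on 4 arrays and 3134 to 5178 on the other 6. Replicates 2 and 4 of the CLP group and replicates 2 and 4 of the sham group made up the low class, so that both classes held both groups. The ratio of 3 prime to 5 prime Gapdh signal, a measure of 3 prime bias, ran from 9.45 to 13.4 in the low class and from 20.7 to 29.5 in the high class. The same ratio for actin overlapped between the classes, at 7.40 to 10.8 in the low and 6.25 to 11.7 in the high class. T cell markers were present in both groups, Cd3e averaging 11.35 ± 0.10 in CLP and 11.47 ± 0.12 in sham arrays and Cd4 10.71 ± 0.12 in CLP and 10.83 ± 0.29 in sham arrays (SD, n = 5 each). All 7 tested markers of CD4 T cells were lower on average in CLP arrays, with a median difference of -0.49 and a summed intensity of 12064 to 14719 in CLP and 14443 to 20575 in sham arrays, and none passed the test. With the 18S class as a block 4 of the 7 fell, Thy1, Trat1, Cd5 and Cd3g (adjusted p = 0.0144, 0.0232, 0.0326 and 0.0426 by limma). In that fit 2.04% of 13073 genes fell, against 0.551% without the block. Without the block Thy1, a surface protein of T cells, differed by -0.79 ± 0.27, Trat1, an adaptor of the T cell receptor, by -0.72 ± 0.16, Cd5 by -0.69 ± 0.17 and Cd3g by -0.49 ± 0.27 (SE). Their part in the results below was not tested. In such bulk samples, fewer cells of a type and less RNA per cell cannot be told apart.

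Among the 25 tested probe sets 2 rose in CLP mice, both of Klf9, and 1 fell, that of Klf10. Over all probe sets 0.167% rose and 0.537% fell by the same test, 0.703% in either direction. By its brightest probe set each gene counted once, and of 10 genes 1 rose and 1 fell, against 0.199% and 0.551% of 13073 genes. The members were chosen with results known, so these counts are a description. At an unadjusted p under 0.05 there were 6 higher and 3 lower, against 3.45% and 7.48% of all probe sets. The members went both ways, 12 differences being positive and 13 negative, with a median of -0.05 where the median of all tested probe sets was 0.0049. With the 18S class as a block the counts were again 2 and 1, against 0.648% and 2.01% of all probe sets, and 0.673% and 2.04% of genes rose and fell. The median size of the difference was 0.25 for the members and 0.10 for all tested probe sets.

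**Figure D1:**
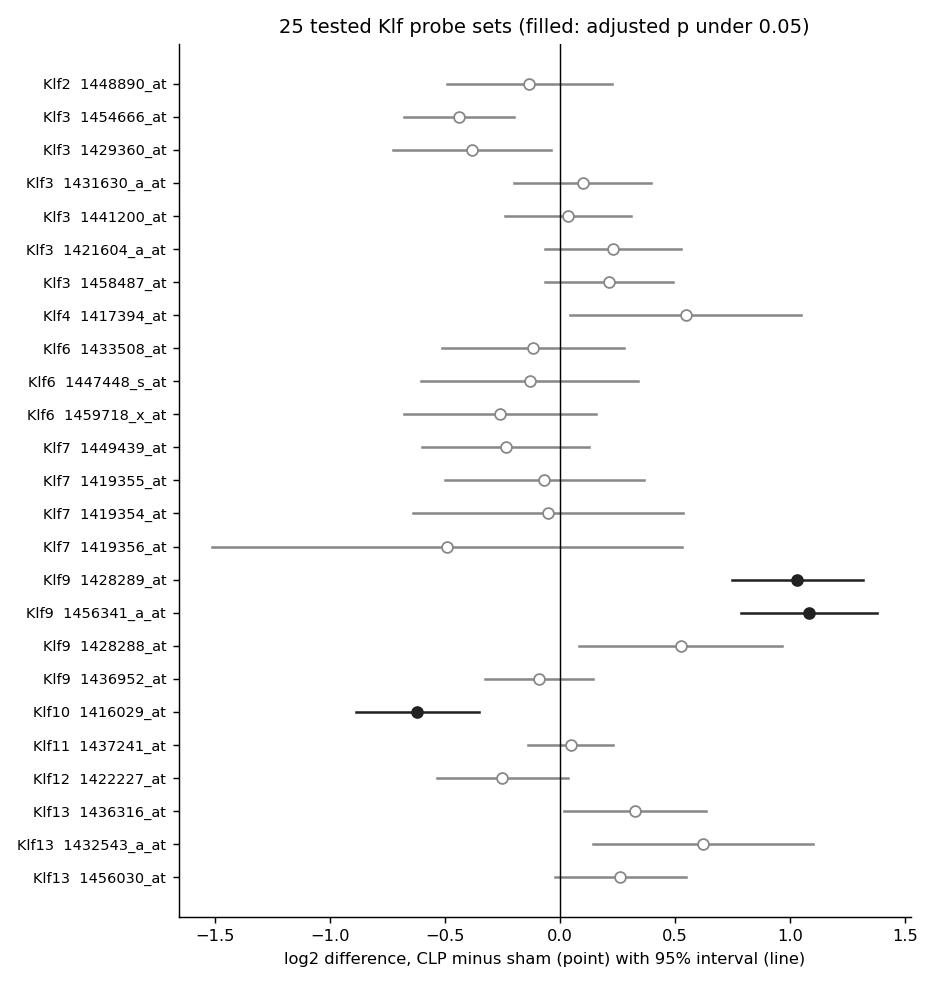
Differences between CLP and sham arrays for the 25 tested Klf probe sets. The horizontal axis is the log2 difference, CLP minus sham, with the point at the estimate and the line its 95% interval from limma (n = 5 mice per group), and filled points have an adjusted p under 0.05. The 2 brightest Klf9 probe sets stand at 1.03 and 1.08, Klf10 stands at -0.62, and the other 22 are open.

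Klf9 was the member that rose. It encodes a small repressor that recruits the Sin3a corepressor and is a direct target of the glucocorticoid receptor in many tissues. Its brightest probe set, 1428289_at, read 10.33, 9.99, 10.42, 9.84 and 10.42 in CLP replicates 1 to 5, against 9.28, 9.18, 9.31, 9.09 and 8.99 in sham replicates 1 to 5. Every CLP array lay above every sham array. The difference was 1.03 ± 0.13 (SE, adjusted p = 0.0163 by limma), which is 2.04-fold. A second probe set, 1456341_a_at, read 9.97, 10.04, 10.27, 9.56 and 9.84 in CLP arrays, against 8.92, 8.90, 8.90, 8.55 and 8.99 in sham arrays. It too was separated without overlap, at 1.08 ± 0.14 (SE, adjusted p = 0.0163 by limma), which is 2.12-fold. Every CLP array was above every sham array in 0.862% of all tested probe sets.

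The other tested Klf9 probe sets differed from those 2. Probe set 1428288_at, built on the same GenBank entry as 1428289_at, read 9.27, 9.98, 9.57, 9.41 and 9.06 in CLP arrays, against 8.70, 9.37, 8.57, 9.30 and 8.74 in sham arrays. The groups overlapped, and the difference of 0.52 ± 0.20 (SE) did not pass (adjusted p = 0.322 by limma). This probe set followed the 18S class, being 0.53 ± 0.13 (SE) higher on low-class than on high-class arrays (adjusted p = 0.0213 by limma), and within each class all CLP arrays lay above all sham arrays, by a mean of 0.36 in the low and 0.63 in the high class. Probe set 1436952_at, the dimmest of the 4 tested, read 7.08 to 7.49 in CLP arrays and 7.15 to 7.50 in sham arrays, a difference of -0.09 ± 0.11 (SE, adjusted p = 0.895 by limma). The remaining 3 Klf9 probe sets had means between 6.13 and 6.23 and were not tested. With the 4 tested probe sets averaged, Klf9 stood at 0.64 and passed (adjusted p = 0.0192 by limma, adjusted here over 13073 genes).

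**Figure D2:**
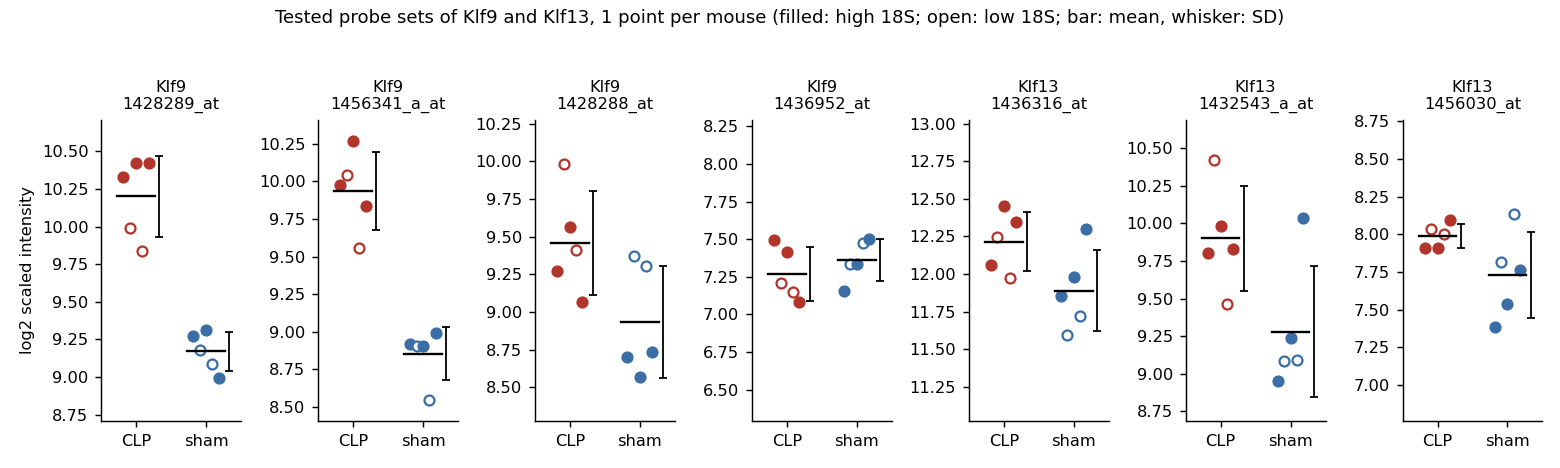
Levels of the 4 tested Klf9 and 3 tested Klf13 probe sets in every mouse. The vertical axes show the log2 scaled intensity over a span of 2 log2 units each, filled points are arrays of the high 18S class and open points of the low class, bars are group means and whiskers SD (n = 5). Klf9 1428289_at and 1456341_a_at separate CLP from sham arrays, 1428288_at does so within each class, and the other 4 overlap between the groups.

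Klf9 was higher in CLP mice in both array classes. For 1428289_at the difference was 0.78 in the low class, with 2 mice per group, and 1.198 in the high class, with 3 mice per group. For 1456341_a_at it was 1.08 and 1.09. That the groups do not overlap within a class follows from their separation over all arrays and adds nothing to it. Neither class alone passed (adjusted p between 0.0634 and 0.458 by limma), and with the class as a block the adjusted p was 0.0032 and 0.0037. Both calls were lost without sham replicate 3, though the differences were no smaller, at 1.07 and 1.10 (adjusted p = 0.0551 and 0.0603 by limma). In that fit 0 of all tested probe sets rose. Without CLP replicate 5 the difference of 1428289_at was 0.98 with adjusted p = 0.0535 by limma.

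The proximal promoters of Klf9 and Klf3 are shown for the CACCC element that the family binds. Among the members with a promoter entry, their brightest probe sets differ most in each direction. Klf10, which fell further than Klf3, has no entry, and the Klf3 difference did not pass. The sequences are the 250 bases before the RefSeq gene start in GRCm38.p6, both on the plus strand, with CACCC and its reverse complement GGGTG in capitals. The Klf9 window is chr19:23140976-23141225 and the Klf3 window chr5:64803271-64803520.
Klf9: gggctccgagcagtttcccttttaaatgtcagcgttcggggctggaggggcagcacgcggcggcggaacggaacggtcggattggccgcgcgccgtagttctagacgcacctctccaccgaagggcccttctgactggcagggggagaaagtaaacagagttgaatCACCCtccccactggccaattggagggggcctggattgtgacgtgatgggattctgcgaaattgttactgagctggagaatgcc
Klf3: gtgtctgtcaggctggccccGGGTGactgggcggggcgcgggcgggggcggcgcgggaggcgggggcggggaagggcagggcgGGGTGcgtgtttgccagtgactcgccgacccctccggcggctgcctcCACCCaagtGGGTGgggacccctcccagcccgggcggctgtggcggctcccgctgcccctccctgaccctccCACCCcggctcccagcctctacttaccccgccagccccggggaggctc
The Klf9 window holds 1 CACCC and the Klf3 window 5, counted on both strands. Of the 10 genes 9 had an entry, and 6 of their windows hold at least 1 CACCC, where 52% of 32851 RefSeq windows of that length do. The element AGAACA of the glucocorticoid receptor was in none of the 9 windows and in 16.1% of all windows. The CRE TGACGTCA (1.55% of all windows), the MEF2 site (0.14%) and the NF-kB site (0.14%), each searched on both strands, were in none of the 9 either.

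Klf10 was the member that fell. It encodes TIEG1, a repressor induced early by TGF-beta that takes part in the function of regulatory T cells in mice. Its only probe set, 1416029_at, read 8.23, 7.94, 7.67, 7.71 and 7.63 in CLP arrays, against 8.40, 8.59, 8.44, 8.51 and 8.34 in sham arrays. All 5 CLP arrays lay below all sham arrays, CLP replicate 1 by the least, and the CLP arrays spread more, with SDs of 0.25 in CLP and 0.10 in sham arrays. The difference was -0.62 ± 0.12 (SE, adjusted p = 0.0469 by limma), a level 1.54-fold lower in CLP mice, where 2.11% of all tested probe sets had every CLP array below every sham array. Within the low class the difference was -0.73 and within the high class -0.55, and with the class as a block the adjusted p was 0.0272 by limma.

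The Klf10 call was narrow. It was lost without any 1 of 9 arrays, all but CLP replicate 1, with adjusted p between 0.0679 and 0.141 by limma, while the difference stayed between -0.72 and -0.57 over all 10 omissions. It was also lost with quantile normalization (adjusted p = 0.0565 by limma), with an intensity trend in the variance (0.0517), with no filter on low signal (0.134) and in a linear model without moderation (0.124). A block by replicate number ended it as well (adjusted p = 0.053 by limma). Klf11, or TIEG2, the member closest to Klf10 in structure and a partner of Sin3a as well, read 8.77, 8.72, 8.75, 8.50 and 8.74 in CLP arrays, against 8.58, 8.54, 8.71, 8.69 and 8.73 in sham arrays. Those groups overlapped, and the difference of 0.05 ± 0.08 (SE, adjusted p = 0.943 by limma) had a 95% interval from -0.14 to 0.23.

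**Figure D3:**
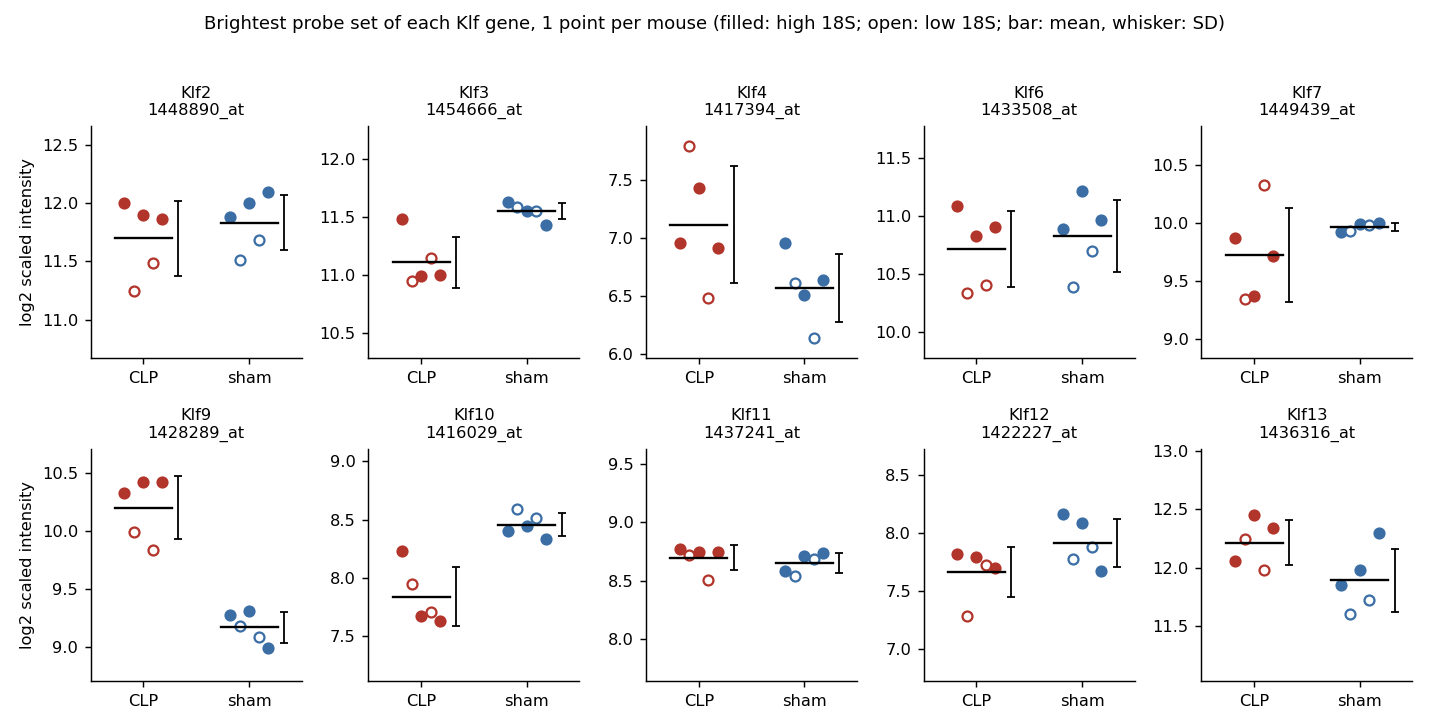
Level of the brightest probe set of each of the 10 Klf genes in every mouse. The vertical axes show the log2 scaled intensity over a span of 2 log2 units each, filled points are arrays of the high 18S class and open points of the low class, bars are group means and whiskers SD (n = 5 mice per group). CLP arrays lie above all sham arrays for Klf9 and below all of them for Klf10, and for the other 8 genes the groups overlap.

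Klf13 had positive differences in all 3 of its probe sets, none of which passed. It encodes RFLAT-1, an activator of the chemokine gene Ccl5 in T cells late after activation. The brightest, 1436316_at, read 12.06, 12.25, 12.45, 11.97 and 12.34 in CLP arrays, against 11.85, 11.60, 11.98, 11.72 and 12.30 in sham arrays. Only sham replicate 5 reached into the upper CLP range, and the difference was 0.32 ± 0.14 (SE, adjusted p = 0.42 by limma). Probe set 1432543_a_at read 9.80, 10.42, 9.98, 9.47 and 9.83 in CLP arrays, against 8.95, 9.09, 9.24, 9.09 and 10.03 in sham arrays. Here 4 of 5 sham arrays lay below every CLP array and sham replicate 5 above 4 of 5 CLP arrays, the difference being 0.62 ± 0.22 (SE, adjusted p = 0.26 by limma), and 0.81 without sham replicate 5 (adjusted p = 0.0803 by limma). The third, 1456030_at, averaged 7.99 ± 0.08 in CLP and 7.73 ± 0.29 in sham arrays (SD, n = 5 each) and differed by 0.26 ± 0.13 (SE, adjusted p = 0.514 by limma). Ccl5 itself differed by -0.10 ± 0.17 (SE, adjusted p = 0.939 by limma).

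Klf3 and Klf12 are repressors that recruit the CtBP corepressors. The brightest Klf3 probe set, 1454666_at, read 11.48, 10.94, 10.99, 11.14 and 10.998 in CLP arrays, against 11.62, 11.59, 11.55, 11.55 and 11.43 in sham arrays. Of the CLP arrays 4 lay below every sham array and CLP replicate 1 among them. The difference of -0.44 ± 0.11 (SE) did not pass (adjusted p = 0.102 by limma), and without CLP replicate 1 it was -0.53 and passed (adjusted p = 0.0128 by limma). The second, 1429360_at, read 10.09, 9.41, 9.52, 10.04 and 9.85 in CLP arrays, against 10.12, 9.85, 10.22, 10.15 and 10.49 in sham arrays, with a difference of -0.38 ± 0.16 (SE, adjusted p = 0.373 by limma). The other 4 tested Klf3 probe sets had differences from 0.03 to 0.23, none of which passed. The average over the 6 tested was -0.04 (adjusted p = 0.901 by limma, adjusted here over 13073 genes). Klf12 was tested by 1 of its 5 probe sets, 1422227_at, which read 7.82, 7.29, 7.79, 7.73 and 7.70 in CLP arrays, against 8.16, 7.78, 8.09, 7.88 and 7.67 in sham arrays. These groups overlapped, and the difference was -0.25 ± 0.13 (SE, adjusted p = 0.543 by limma).

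Klf2, the quiescence factor, did not pass. Its only probe set, 1448890_at, read 12.01, 11.24, 11.90, 11.49 and 11.87 in CLP arrays, against 11.89, 11.51, 12.00, 11.68 and 12.09 in sham arrays. The groups overlapped, and the difference of -0.13 ± 0.16 (SE, adjusted p = 0.901 by limma) had a 95% interval from -0.49 to 0.23. The arrays parted by 18S class instead, at 11.24 to 11.68 in the low class and 11.87 to 12.09 in the high class, a difference of -0.48 ± 0.09 (SE, adjusted p = 0.005 by limma in a fit with both terms).

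Klf6, a widely expressed factor that is induced quickly in many cell types, also did not pass and also parted by class. Its brightest probe set, 1433508_at, read 11.09, 10.34, 10.83, 10.40 and 10.90 in CLP arrays, against 10.89, 10.38, 11.21, 10.70 and 10.97 in sham arrays. The difference of -0.12 ± 0.18 (SE, adjusted p = 0.927 by limma) had a 95% interval from -0.51 to 0.28. The 2 other tested probe sets, 1447448_s_at and 1459718_x_at, were designed on 1 shared GenBank entry and carry suffixes that mark probes shared with other transcripts. They differed by -0.13 ± 0.22 and -0.26 ± 0.19 (SE, adjusted p = 0.934 and 0.753 by limma). Between the low and high class the 3 probe sets differed by -0.53, -0.68 and -0.57, all past the threshold and without overlap of the classes.

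Klf7, known mainly for the growth of nerve cells in mice, was read by 4 probe sets that were all designed on 1 GenBank entry, and none passed. The brightest, 1449439_at, read 9.87, 9.35, 9.37, 10.32 and 9.72 in CLP arrays, against 9.92, 9.93, 9.99, 9.98 and 9.996 in sham arrays. The sham arrays lay within 0.1 log2 units of each other and the CLP arrays on both sides of them, with SDs of 0.40 in CLP and 0.03 in sham arrays, and the difference was -0.24 ± 0.16 (SE, adjusted p = 0.728 by limma). Probe set 1419356_at spread furthest, from 7.36 to 9.18 in CLP arrays and from 7.55 to 9.59 in sham arrays. Its classes did not overlap, at 7.36 to 8.04 in the low and 8.59 to 9.59 in the high class (difference -1.52 ± 0.16, SE, adjusted p = 0.00018 by limma), while CLP and sham differed by -0.49 ± 0.47 (SE, adjusted p = 0.842 by limma). The 2 remaining probe sets differed by -0.07 and -0.05.

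In all, 7 of the 25 tested Klf probe sets differed between the 18S classes, 6 of them lower and 1 higher on low-class arrays, where 10.1% and 4.99% of all tested probe sets did, 15.1% in either direction. These were the 1 of Klf2, the 3 of Klf6, 2 of the 4 of Klf7 and 1428288_at of Klf9. The 3 probe sets that were called for CLP against sham differed between the classes by -0.27, -0.22 and 0.07, and none of these passed.

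**Figure D4:**
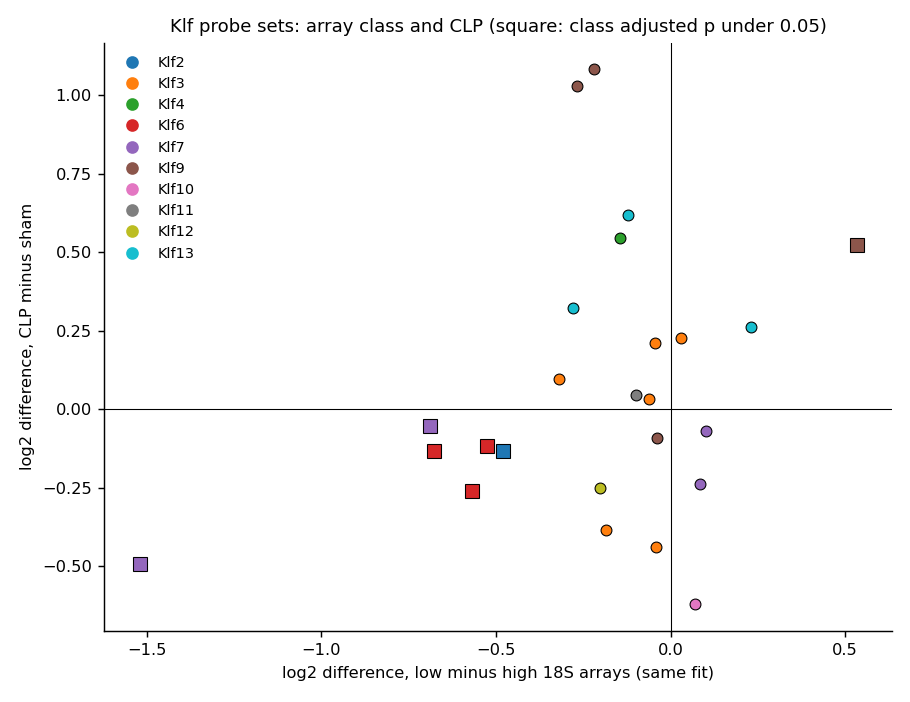
Difference between the 18S classes set against the difference between CLP and sham for the 25 tested Klf probe sets. Both axes are log2 differences from 1 fit with both terms, low minus high class on the horizontal and CLP minus sham on the vertical axis, colours mark genes and squares mark an adjusted p under 0.05 for the class. Squares of Klf2, Klf6 and Klf7 lie at the left between -0.48 and -1.52 and below 0 on the vertical axis, and Klf9 1428289_at and 1456341_a_at lie at the top near the middle.

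Klf4, which in blood is typical of monocytes and slows division in T cells, gave weak signal. Its tested probe set, 1417394_at, read 6.96, 7.79, 7.43, 6.48 and 6.92 in CLP arrays, against 6.96, 6.61, 6.51, 6.14 and 6.64 in sham arrays. The groups overlapped, and the difference of 0.54 ± 0.23 (SE) did not pass (adjusted p = 0.389 by limma) and was 0.38 without CLP replicate 2. Its other probe set averaged 6.53 in CLP and 6.355 in sham arrays and was not tested. Of 8 tested markers of monocytes and macrophages none passed and 5 had a positive difference, with a summed intensity of all 9 measured of 3921 to 4858 in CLP and 3262 to 5015 in sham arrays. Of 7 neutrophil markers none passed and 4 had a positive difference, the sum running from 1843 to 14791 in CLP and from 3656 to 11043 in sham arrays. The monocyte markers did not move one way. Cd14, a receptor for bacterial lipopolysaccharide, averaged 8.79 ± 0.47 in CLP and 8.07 ± 0.25 in sham arrays (SD, n = 5 each, adjusted p = 0.156 by limma, and 0.0506 with the class as a block). Vcam1 averaged 7.77 ± 0.66 in CLP and 8.97 ± 0.56 in sham arrays (SD, n = 5 each, adjusted p = 0.134 by limma). Csf1r, the receptor for the macrophage growth factor, averaged 11.36 in CLP and 11.34 in sham arrays. It was by far the brightest of the 9 and so weighs most in the summed intensity of the monocyte markers. Lyz2 averaged 6.74 in CLP and 6.84 in sham arrays, C1qa 6.70 in CLP and 6.80 in sham arrays, and Cd68, not tested, 6.35 in CLP and 6.32 in sham arrays. Their part in the Klf4 values was not tested.

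Genes around the family were read by their brightest probe set from lists chosen with earlier results of these data known. Of 9 tested KLF and SP genes outside the 10, none passed, and 8 differences were negative, with a median of -0.09 where all genes had 0.0046. The largest were those of Sp1 and Sp3, general activators that bind the same GC boxes, at -0.31 ± 0.21 and -0.29 ± 0.22 (SE, adjusted p = 0.721 and 0.757 by limma). Klf14 differed by -0.09 and Sp4 by -0.10. Of 12 genes upstream of Klf2 (FOXO factors, the MEK5, ERK5 and MEF2 cascade and ubiquitin ligases) none passed, the median being -0.10. Foxo1, which activates Klf2 in resting T cells, averaged 11.56 ± 0.17 in CLP and 11.75 ± 0.10 in sham arrays (SD, n = 5 each, adjusted p = 0.549 by limma). Mef2a differed by -0.37 ± 0.14 (SE, adjusted p = 0.312), Map2k5 (MEK5) by -0.31 and Mef2d by 0.15.

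Of 9 tested trafficking and quiescence genes linked to Klf2, none passed and the median was -0.0013. S1pr1, the egress receptor that Klf2 activates, averaged 9.78 ± 0.38 in CLP and 9.65 ± 0.28 in sham arrays (SD, n = 5 each), and Cd69, which opposes S1pr1 at the cell surface, 10.63 ± 0.29 in CLP and 10.64 ± 0.12 in sham arrays. Ccr7, the lymph node homing receptor, differed by 0.21 ± 0.17 (SE) and Cdkn1a, a brake on the cell cycle, by 0.20 ± 0.13. The gut-homing integrin Itgb7 was at -0.63 ± 0.17 (SE, adjusted p = 0.134 by limma, and 0.0293 with the 18S class as a block), and Cxcr3 at -0.35 ± 0.11 (adjusted p = 0.215 by limma).

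Of 8 tested corepressors of KLF proteins none passed, the median being -0.07. Sin3b, a scaffold for histone deacetylases, differed by 0.32 ± 0.11 and Hdac2, one of those enzymes, by -0.52 ± 0.16 (SE, adjusted p = 0.263 and 0.186 by limma), Hdac1 by -0.19 and Sin3a, the partner of Klf9, Klf10 and Klf11, by 0.17 ± 0.22. Of 13 tested TGF-beta genes none passed, the median being -0.05: Ski, a brake on SMAD signalling, differed by -0.54 ± 0.17 (SE, adjusted p = 0.204 by limma, and 0.0442 with the class as a block), the receptor chain Tgfbr1 by -0.40, Tgfbr3 by -0.34 and the inhibitor Smad7 by -0.17. Of 4 tested genes described as targets of Klf4, Klf6 or Klf13 none passed, with a median of -0.00036, and Cdkn1a, Hmox1 and Eng differed by 0.20, 0.06 and -0.06.

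The glucocorticoid list is the one that held a called gene. Of 12 tested genes 1 rose, Dusp1, a MAP kinase phosphatase induced by the hormone, where 0.199% of 13073 genes rose. Of the 12 differences 9 were positive, with a median of 0.41. Dusp1 averaged 11.07 ± 0.11 in CLP and 10.10 ± 0.26 in sham arrays (SD, n = 5 each, adjusted p = 0.0163 by limma), 1.95-fold, beside the 2.04-fold of Klf9. Fkbp5, a co-chaperone of the receptor, differed by 0.76 ± 0.16 (SE, adjusted p = 0.063 by limma, and 0.0322 with the class as a block). Mt1 was at 0.82 ± 0.24 and the clock gene Per1 at 0.89 ± 0.27 (SE, adjusted p = 0.162 and 0.177 by limma). The smallest positive differences were those of Tsc22d3 at 0.27 ± 0.37 and Ddit4 at 0.19 ± 0.42 (SE, adjusted p = 0.916 and 0.952 by limma). The genes with a negative difference were Cxcr4 at -0.43 ± 0.20, Sgk1 at -0.01 ± 0.09 (SE, adjusted p = 0.485 and 0.985 by limma) and the receptor gene Nr3c1 at -0.21 ± 0.13 (adjusted p = 0.663 by limma). The list was put together with the rise of Klf9 and the values of these genes already known, so it is no independent sign of direction.

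Genes whose profile over the 10 arrays lay closest to each called probe set were found among 13063 others, by the root mean square difference of log2 levels after each profile was centred on its mean. For Klf9 1428289_at these were Rapgef3, an exchange factor switched on by cyclic AMP, at 0.21, Map3k5 at 0.25 and H3f3b at 0.27, where the probe set's own spread by the same measure was 0.55. For Klf9 1456341_a_at they were Ifngr1, the ligand-binding chain of the interferon gamma receptor, at 0.26, Dusp1 at 0.27 and Rras2 at 0.27, against an own spread of 0.58. For Klf10 they were Mon1b at 0.09, Pafah1b2 at 0.09 and Krcc1 at 0.09, against 0.35. The genes listed for the 2 Klf9 probe sets differ. Members were left out of the search, so these lists do not tell how alike the 2 probe sets are.

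**Figure D5:**
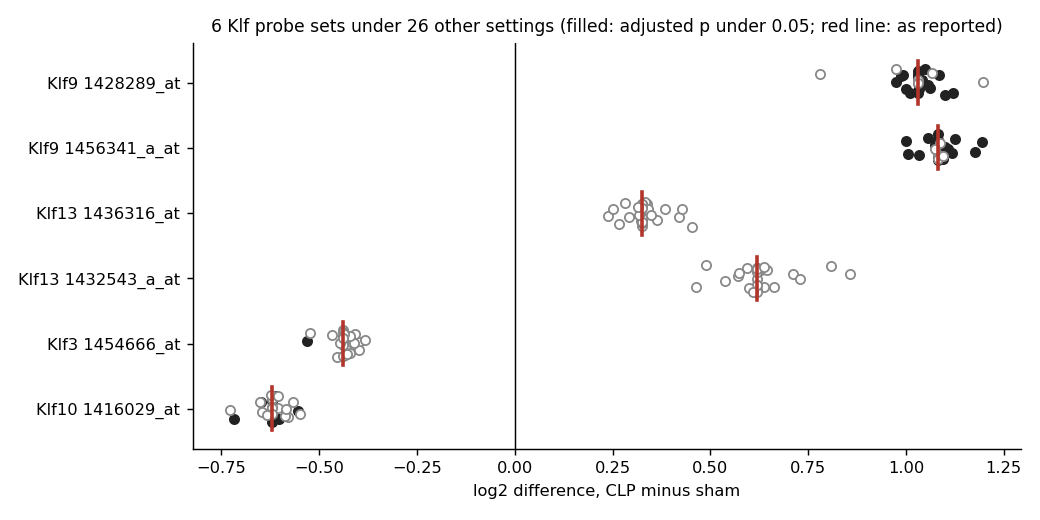
Differences of 6 Klf probe sets under 26 other settings of the processing, array omissions included. The horizontal axis is the log2 difference, CLP minus sham, each point is 1 setting with a small vertical offset, filled points have an adjusted p under 0.05 and the red line is the reported value. The Klf9 points lie between 0.78 and 1.198, and the Klf13 points are positive and open throughout. The points of Klf10 and of Klf3 1454666_at, the only Klf3 probe set drawn, are negative throughout.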

How the data were processed

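RNA of CD4+ splenocytes was read on 10 Affymetrix arrays, 5 from CLP and 5 from sham mice, after 2 rounds of amplification, per the labels' protocols. The authors deposited linear intensities for each probe set, ranging from 0 to 20290, with array medians of 127.6 to 142.4. Not given in the sources used here: the software, background correction and scaling. No depth applies to arrays, and their number limits the precision.

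Probe sets were named from the platform annotation (34945 with 1 symbol, 932 with several, 9160 unnamed here). Arrays were scaled to a common median, values under the 25th percentile (69.8) were raised to it and log2 was taken. Tests covered the 27022 probe sets that were no control (64 are) and whose mean reached the 40th percentile (6.70). The comparison used limma (version 3.58.1; R 4.3.3), adjusted by Benjamini-Hochberg over all 27022, with a threshold of 0.05. The fit was tested on simulated arrays. Figures were drawn with matplotlib 3.10.9. Promoter sequences are RefSeq's, assembly GRCm38.p6.

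All members are shown. Genes named from the lists are those past the threshold and up to 4 with the lowest p in each list, by the brightest probe set with 1 symbol. The T cell and monocyte markers and S1pr1, Cd69, Nr3c1, Cxcr4, Sgk1, Tsc22d3, Ddit4, Ctbp1 and Ctbp2 were named after their values were seen. The members and lists were chosen with earlier results of these data known, and so was the split by 18S signal at an intensity of 1000. Titles number the CLP mice 1 to 5. All 5 sham titles say biological replicate 1 and differ by a suffix from 1 to 5, used here as the replicate number, while the source of each sample is given as an individual mouse. Alternatives were other scaling, floors, filters and variance models, a block by replicate number or 18S class, each class alone, averaged probe sets and the omission of each array.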

Additional observations from a re-analysis of the deposited data

Results flagged for a closer look

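In groups of 5 arrays a value far from the other 4 was looked for in the 25 tested Klf probe sets, and 4 of 50 groups held one, where chance gives about 1 in 20. For Klf9 1456341_a_at, sham replicate 4 was lowest at 8.55 on the log2 scale, where the other sham arrays read 8.90 to 8.99. For Klf11 1437241_at, CLP replicate 4 was lowest at 8.50, against 8.72 to 8.77 in the other CLP arrays. For Klf12 1422227_at, CLP replicate 2 was lowest at 7.29, against 7.70 to 7.82. For Klf13 1432543_a_at, sham replicate 5 was highest at 10.03, against 8.95 to 9.24 in the other sham arrays. The first 3 of these arrays belong to the low 18S class and the last to the high class.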

How the results depend on the processing

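The 2 Klf9 probe sets and Klf10 kept their direction under all 26 other settings, the Klf9 probe sets passing in 20 (1428289_at) and 21 (1456341_a_at) and Klf10 in 10. The count of Klf probe sets that rose stayed at 2 except for 0 with no filter on low signal, 0 with a linear model without moderation and 0 in either 18S class alone, and it ran from 0 to 2 when 1 array was left out. The count that fell was 1, and 0 with quantile normalization, with an intensity trend, with no filter, without moderation, with the replicate block and in either class alone, and it ran from 0 to 2 over the omissions. Over all probe sets 45 rose and 145 fell, and these became 175 and 543 with the 18S class as a block, 154 and 355 with array weights, 0 and 3 with no filter (3676 at an unadjusted p under 0.05 by limma), 0 and 1 without moderation (2951) and 0 and 0 in the high class alone (3611) and in the low class alone (1959). Over the omissions they ran from 0 to 123 and from 4 to 383, lowest without sham replicate 3 (2291 at an unadjusted p under 0.05 by limma). The cause of these moves was not tested, other than that single classes hold fewer arrays. Same-numbered CLP and sham arrays deviated together with correlations of 0.06 to 0.58, and 1 of 5 CLP arrays matched its own number best. The numbers are not read as pairs, although the CLP and sham arrays of all 5 numbers shared an 18S class. With the replicate block 90 probe sets rose and 158 fell, and Klf10 had adjusted p = 0.053 by limma. Of 647 values of single Klf probe sets, 605 kept direction and side of the threshold, 27 lost the call, 1 gained it (Klf3 1454666_at without CLP replicate 1) and 14 changed sign, none of them called. The sign changes were of Klf3 1441200_at (-0.026 with array weights, -0.0090 in the low class, -0.054 to 0.10 over the omissions), Klf7 1419355_at (0.032 in the high class, -0.23 to 0.023 over the omissions), Klf7 1419354_at (0.23 in the low class, -0.19 to 0.12 over the omissions), Klf9 1436952_at (0.0010 in the high class) and Klf11 (-0.0038 in the low class).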

Other observations

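Several genes that work with or beside the Kruppel-like factors also differed between the 18S classes in the fit with both terms. Sp1 and Sp3, which bind GC boxes, were lower on low-class arrays, at -0.66 and -0.67 (adjusted p = 0.0015 and 0.0012 by limma). The corepressor Ctbp1 and the deacetylase Hdac1 were lower, at -0.58 and -0.62 (adjusted p = 0.0045 and 0.0036 by limma), and Ctbp2 was higher, at 0.96 (adjusted p = 0.0119 by limma). Between CLP and sham, Sp1 differed by -0.31, Sp3 by -0.29, Ctbp1 by 0.02, Hdac1 by -0.19 and Ctbp2 by -0.07, and none passed.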
